A study of Sus scrofa with 6 samples.

Results

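Accessible chromatin was examined at 10 genes that mark and build the endothelium: the receptors KDR, FLT1, TEK and TIE1, the junction protein gene CDH5, and the transcription factor genes ERG, FLI1, ETV2, SOX17 and SOX18. They were 10 of the 25423 genes that had a window, and a window was the gene body plus 2 kb upstream of its start in the RefSeq annotation of Sscrofa11.1. Peaks of 6 single-cell ATAC-seq libraries that overlapped one another were joined into regions, and 204 of all 294825 regions touched a member window. The libraries came from somites at embryonic days 18 (E18) and 21 (E21) and from myotomes at day 28 (E28), each from purebred Tibetan embryos (ZZ) and from Duroc × Tibetan embryos (DZ). The somite is the embryonic segment that gives rise to trunk muscle, and the myotome is its muscle-forming layer. Each library was a pool of 5 embryos of a single sow, dissociated with collagenase, so there was 1 library per stage and breed, and stage and tissue changed together at E28. Both libraries of 1 stage stood as replicates of that stage once breed was a term in the fit. The p-values therefore rest on the spread between these pools, which the fits share in part over all regions or windows. Wherever 6 values are given they run from E18 to E21 to E28, with ZZ before DZ within a stage.

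Blood vessels grow into the somite while it forms, and the somite itself contributes endothelial cells. KDR (VEGFR2) is the main signalling receptor for VEGFA, and FLT1 (VEGFR1) binds the same ligand and acts largely as a decoy. TEK (TIE2) is the angiopoietin receptor, TIE1 is its co-receptor, and CDH5 encodes VE-cadherin, the adhesion molecule of endothelial junctions. ERG, FLI1 and ETV2 are ETS factors, which bind DNA around the core GGAA. ETV2 acts early in the specification of blood and endothelial progenitors, and ERG and FLI1 maintain endothelial identity, while both are also active in other tissues, ERG in forming cartilage and FLI1 in neural crest and blood. SOX17 and SOX18 are SoxF factors of arterial and lymphatic endothelium. Open chromatin marks promoters and enhancers that proteins can reach, and it is not a measure of transcription.

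The intron sequences that stood out most are shown here, since they carry the findings on cell class and on stage. Positions are distances of a region's midpoint from the annotated start of the gene, and each sequence is 120 or 200 bases around the centre of the stretch that the peaks of the region shared, read from the Sscrofa11.1 genome on the strand of the gene. Capitals mark the ETS core, GGAA or its reverse complement TTCC. The first set holds introns that were more accessible in cells with endothelial marker signal. The last of them, in TEK, had no peak in some libraries, was not tested and is shown only for its level:
FLI1 +27.1 kb (intron 2, chr9:55639877-55639996, plus strand): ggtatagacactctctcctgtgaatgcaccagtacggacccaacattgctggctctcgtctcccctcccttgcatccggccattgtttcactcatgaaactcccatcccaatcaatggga
CDH5 +9.4 kb (intron 1, chr6:27117615-27117814, plus strand): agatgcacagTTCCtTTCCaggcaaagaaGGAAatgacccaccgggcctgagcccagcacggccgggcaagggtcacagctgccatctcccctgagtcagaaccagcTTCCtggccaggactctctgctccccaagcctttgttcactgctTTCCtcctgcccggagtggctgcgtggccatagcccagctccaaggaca
ERG +195.6 kb (intron 3, chr13:202106798-202106997, minus strand): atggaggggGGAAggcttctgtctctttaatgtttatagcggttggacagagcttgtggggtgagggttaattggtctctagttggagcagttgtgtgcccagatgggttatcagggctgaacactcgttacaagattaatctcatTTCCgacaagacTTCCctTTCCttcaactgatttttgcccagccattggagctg
CDH5 +6.0 kb (intron 1, chr6:27114537-27114736, plus strand): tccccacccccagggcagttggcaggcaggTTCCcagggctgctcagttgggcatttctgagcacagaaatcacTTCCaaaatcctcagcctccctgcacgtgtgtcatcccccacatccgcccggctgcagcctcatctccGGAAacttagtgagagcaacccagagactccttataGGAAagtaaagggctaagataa
CDH5 +1.8 kb (intron 1, chr6:27110213-27110332, plus strand): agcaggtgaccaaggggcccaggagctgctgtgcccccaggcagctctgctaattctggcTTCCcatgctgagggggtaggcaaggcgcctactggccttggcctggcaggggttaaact
FLI1 +48.2 kb (intron 2, chr9:55661029-55661228, plus strand): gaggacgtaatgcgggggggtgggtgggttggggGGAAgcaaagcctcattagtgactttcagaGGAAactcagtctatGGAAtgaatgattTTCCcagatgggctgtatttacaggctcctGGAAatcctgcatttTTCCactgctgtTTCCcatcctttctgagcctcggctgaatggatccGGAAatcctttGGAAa
TEK +6.2 kb (intron 1, chr1:196045957-196046076, minus strand): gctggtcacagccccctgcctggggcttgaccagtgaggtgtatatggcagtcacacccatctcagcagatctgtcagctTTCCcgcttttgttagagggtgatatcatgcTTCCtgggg
The second set holds introns that changed between E18 and E28, of which the ERG and FLI1 introns were higher at E28 and the FLT1 intron lower:
ERG +240.5 kb (intron 4, chr13:202062098-202062297, minus strand): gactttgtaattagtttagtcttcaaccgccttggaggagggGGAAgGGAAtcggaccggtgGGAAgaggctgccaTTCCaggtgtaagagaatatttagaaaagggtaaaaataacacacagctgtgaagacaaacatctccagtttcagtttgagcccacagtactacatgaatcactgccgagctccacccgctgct
FLI1 +89.9 kb (intron 4, chr9:55703148-55703267, plus strand): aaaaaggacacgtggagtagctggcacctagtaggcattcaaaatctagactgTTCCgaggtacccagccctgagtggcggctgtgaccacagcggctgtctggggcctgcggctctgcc
FLT1 +77.3 kb (intron 10, chr11:5720138-5720257, minus strand): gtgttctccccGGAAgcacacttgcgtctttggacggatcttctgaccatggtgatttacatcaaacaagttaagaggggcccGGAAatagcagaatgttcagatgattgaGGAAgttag
The number of cores in these stretches ran from 0 in FLI1 +27.1 kb to 9 in FLI1 +48.2 kb. In the central 300 bases, 67 of the 69 member regions with a peak in every library held a GGAA on either strand, which was also true of 96.8% of all 78533 such regions. The longer ETS motif ACAGGAA was in 5 of the 69 members and in 8.91% of all regions. It was in none of the 14 members that were higher in marker-high cells, and also in none of the 14 that were lower. Of the untested regions described below, which were picked after their values were seen, the peak over the CDH5 start, the TEK promoter and FLT1 +83.0 kb held ACAGGAA. TEK +6.2 kb and ERG +172.6 kb did not. The share of ACAGGAA over all untested regions was not counted. AACAGGAA, a form of it that a forkhead and an ETS factor can share and that contains ACAGGAA, was in 2 of 69 and in 2.84% of all. The SOX motif AACAAT was in 5 of 69 against 10.9%, the GATA motif AGATAA in 9 of 69 against 10.4%, and the E-box CAGCTG of myogenic factors in 14 of 69 against 27.1%. Every motif was searched on both strands, and a match describes only the letters.

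Peaks were unevenly spread over the genes. ERG had 69 regions, FLT1 54, FLI1 31, KDR and TEK 15 each, TIE1 and CDH5 8 each, ETV2 2, and SOX17 and SOX18 1 each. Those with a peak in every library, which were tested, were 24 in ERG, 14 each in FLT1 and FLI1, and 5 in CDH5. KDR and TIE1 had 3 each, TEK and ETV2 2 each, and SOX17 and SOX18 1 each. By position, 11 regions lay over the annotated start of the gene or the 2 kb before it and are called promoters, 27 touched an exon and 166 lay in introns. A region that touched an exon is called an exon region, even where the stretch its peaks shared was centred in an intron. That was so for KDR +34.4 kb (intron 22) and TIE1 +21.0 kb (intron 16). TIE1 was the only member without a promoter region in that sense. Its strongest region in the deposited peaks ran from 167935656 to 167942026 on chromosome 6, 8.4 kb into the gene, and lay over 4 annotated transcript starts, although it counts as an exon region here. The promoter regions named for CDH5 (-2.9 kb) and ETV2 (-1.2 kb) lay before the start and covered 0 transcript starts. The SOX18 region was 20552 bases long and covered TCEA2 as well, the FLI1 promoter region reached LOC100516820, the SOX17 region reached LOC100627466, and the exon region of ETV2 reached COX6B, so counts there cannot be assigned to a single gene.

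The authors called peaks in each library separately, and counts exist only inside called peaks, so the length called sets part of every sum. The member windows held from 113 (E28 ZZ) to 170 (E18 ZZ) peaks, whose regions covered 197525, 178271, 150082, 166267, 105198 and 106978 bases. The members took 0.103%, 0.106%, 0.102%, 0.105%, 0.103% and 0.0987% of all called sequence, which is an almost constant share. A peak was present in both E18 libraries and in neither E28 library at 57 member regions (27.9%), against 26.8% of all regions, and the opposite held at 12 (5.88%), against 6.72%. The TEK promoter was of the first kind, with 2.63 and 3.27 CPM (counts scaled to the kept total of each library) at E18 and no peak in the other 4 libraries. For the 69 members with a peak in all 6 libraries, the log2 change of counts from E18 to E28 followed the log2 change of called length (Pearson r = 0.94, Spearman rho = 0.92, across 69 regions of the same libraries). Stage changes are therefore given both as counts and per covered base. The covered length enters the second as an offset, which brought the median log2 fold change of all regions between E18 and E28 from -0.02 to 0.43.

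To find where these genes were open, cells were split by 13 other endothelial marker genes (PECAM1, CLDN5, EMCN and the like), none of which is a member. A cell was called endothelial-marker-high when its fragments in those windows exceeded the library's mean share by at least 5 Poisson SD and lay in at least 3 windows. This applied to 156 of 58809 cells (0.265%), and 350 cells lay between 4 and 6 SD, so the class is a range and not a sharp type. There were 27, 30, 12, 30, 29 and 28 such cells. The lowest share was 0.129% in E21 ZZ (95% exact binomial interval 0.0668 to 0.226) and the highest 0.321% in E21 DZ (0.217 to 0.458), intervals that cover counting error only. The median depth was 12268.5 to 15426.5 counts in marker-high cells and 8078 to 11448 in the others. When cells were thinned to 2000 fragments, which left out 421 to 1540 cells per library, shares ran from 0.0632% in E28 DZ to 0.293% in E18 DZ. By the way they were chosen, marker-high cells held more endothelial marker fragments, a median of 11 against 1 in other cells. For the lists not used in the choice the medians were 2 and 1 for blood, 2 and 1 for heart, 1 and 2 each for mural, myogenic and mesenchymal markers, and 1 and 1 for neural markers. No doublet caller was run, and barcodes are called cells with that reservation.

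Summed over libraries, all 10 member windows had more CPM in marker-high cells than in the rest, as did 53.3% of all 22320 windows, with a median ratio of 1.03. These ratios were not tested. CDH5 had the largest ratio, 8.50, followed by SOX18 (3.31), SOX17 (2.62), KDR (2.58), TEK (2.51), TIE1 (2.09), ETV2 (1.93) and FLT1 (1.72). ERG and FLI1 had ratios of only 1.24 and 1.15, which 28.5% and 37.4% of all windows reached. The fit below scales the classes by TMM, which put the log2 fold changes of member regions a median of 0.54 below their log2 CPM ratios, so that the small excess of ERG and FLI1 depends on the scaling. Tested region by region, with counts summed per library and class and the library as a block, 28 of 69 members passed the edgeR quasi-likelihood test (background 30.5%). Higher in marker-high cells were 14 (20.3%), where the background over all 78506 regions tested was 2.64%. Lower were 14 (20.3%), where the background was 27.8%. The median log2 fold change was -0.69 over the members and -1.14 over all regions. Promoters gave 4 of the higher calls from 8 tested, exons 4 of 10 and introns 6 of 51. The same split was not counted over all regions.

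CDH5 had 4 of its 5 tested regions higher in marker-high cells. Its intron 1 region at +9.4 kb had 21.8, 34.9, 16.2, 69.04, 13.7 and 26.8 CPM in marker-high cells against 2.43, 2.41, 1.10, 1.44, 0.78 and 0.99 in the others. The marker-high values came from 8, 14, 3, 31, 5 and 12 counts. The classes did not overlap in any library, and the pooled levels were 32.9 and 1.61 CPM (log2 fold change 3.77 ± 0.64 SE, adjusted p = 5.1e-07, edgeR quasi-likelihood test). The regions at +6.0 kb (18.5 against 1.42 CPM, 3.17 ± 0.82, higher in 5 of 6 libraries) and at +1.8 kb (22.6 against 2.93 CPM, 2.44 ± 0.66, 6 of 6) lie in the same intron. The promoter region, 2.9 kb before the start, had 32.9 against 7.36 CPM (1.76 ± 0.46).

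In ERG and FLI1 the higher calls were 3 introns, and neither promoter passed. FLI1 intron 2 at +27.1 kb had 21.8, 34.9, 32.3, 22.3, 2.74 and 42.5 CPM in marker-high cells and 1.42, 1.58, 0.87, 0.998, 0.16 and 0.75 in the others. It was higher in every library, from 8, 14, 6, 10, 1 and 19 counts in marker-high cells, so the E28 ZZ value rests on 1 count. Its fold was the largest of all members tested (26.2 against 1.02 CPM, log2 fold change 4.21 ± 0.75, adjusted p = 1.9e-06, edgeR). A second site in the same intron, at +48.2 kb, had 11.3 against 1.83 CPM (2.04 ± 0.78, adjusted p = 0.034, edgeR). That site had only 2, 5, 4, 3, 9 and 2 counts in marker-high cells. ERG intron 3 at +195.6 kb had 16.4, 44.8, 80.8, 62.4, 60.2 and 24.6 CPM in marker-high cells and 6.54, 6.89, 5.70, 4.04, 1.86 and 0.48 in the others. Pooled, that was 45.1 against 4.53 CPM (3.28 ± 0.45, adjusted p = 1.0e-10, edgeR). The promoters had 22.1 against 24.1 CPM for ERG (-0.67 ± 0.35) and 107 against 81.5 for FLI1 (-0.15 ± 0.16), though the FLI1 promoter was higher in marker-high cells (0.30, adjusted p = 0.0084, edgeR) with a cut at 3 Poisson SD. Of the 14 lower calls, 10 were in ERG, 3 in FLI1 and 1 in FLT1, from 24, 14 and 14 tested regions, where the background was 27.8%. Of these calls 13 were introns, from 51 tested. ERG intron 4 at +240.5 kb had 3.61 CPM in marker-high cells and 11.9 in the others (-2.56 ± 0.75), from 0, 0, 0, 2, 2 and 4 counts in marker-high cells, too few to show a direction in each library. In 7 of the lower ERG regions marker-high cells had no count at all, and against a floor of 3 counts over the class (1.35 CPM) the clearest was at +136.8 kb, at least 3.95-fold lower. For ETV2, whose role is early, the promoter had 11.7 against 8.41 CPM and did not pass, and only the exon region shared with COX6B did (91.6 against 45.2 CPM, 0.49 ± 0.19).

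In the receptor genes, the tested regions that were higher in marker-high cells were promoters or touched an exon. The stretch that the peaks shared was centred in intron 27 for KDR +37.4 kb and in intron 18 for FLT1 +149.3 kb. They are therefore not set apart from introns by position. The FLT1 promoter had 73.7, 67.2, 70.0, 62.4, 71.2 and 93.8 CPM in marker-high cells against 28.7, 28.6, 20.9, 18.0, 17.4 and 26.1 in the others (1.17 ± 0.23, adjusted p = 2.8e-05, edgeR), with no overlap. The FLT1 exon region at +149.3 kb followed, with 32.0 against 11.12 CPM (1.17 ± 0.41). The KDR promoter had 49.6 against 23.1 CPM and was higher in 6 of 6 libraries, but just missed the threshold (0.65 ± 0.28, adjusted p = 0.057, edgeR), though it passed with DESeq2 and at 3 Poisson SD, whereas the KDR exon region at +37.4 kb passed (33.4 against 9.62 CPM, 1.31 ± 0.40, adjusted p = 0.010, edgeR). For TIE1 the region at +8.4 kb passed (70.9 against 23.2 CPM, 1.11 ± 0.24). The regions of SOX17 (37.9 against 14.5 CPM, adjusted p = 0.0497, edgeR) and SOX18 (244 against 76.8 CPM) also passed, with the shared coverage named above. The plot of marker-high against other cells shows the intron regions of CDH5, FLI1 and ERG far above the diagonal and a group of ERG introns below it.

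**Figure D1:**
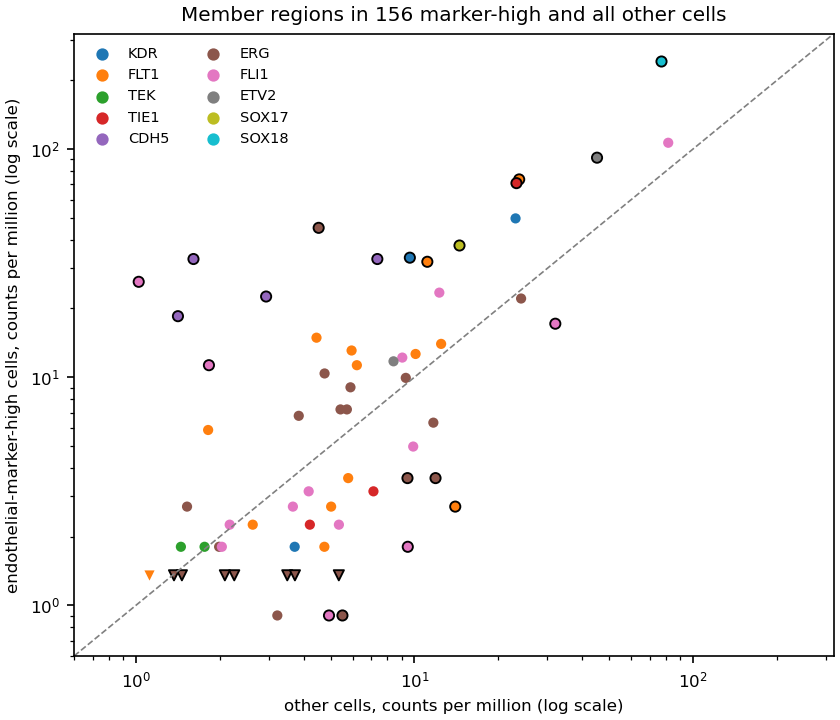
Level of each of the 69 member regions, in CPM, in the 156 endothelial-marker-high cells (vertical axis) against all other cells (horizontal axis), both axes logarithmic, coloured by gene. Outlined points passed the edgeR test, triangles are regions with no count in marker-high cells drawn at the floor of 1.35 CPM, and the dashed line marks equal levels. Regions of CDH5, FLI1 (26.2 against 1.02) and ERG (45.1 against 4.53) lie farthest above the line.

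Regions without a peak in every library could not enter the test, and several of them carried marker-high counts. TEK intron 1 at +6.2 kb, with a peak in 4 libraries, had 27 counts in marker-high cells, 12.2 CPM against 0.654 in the others. A narrow peak over the CDH5 start (chr6:27108196-27108798, 5 libraries) had 12.2 against 0.742 CPM, an ERG exon region at +172.6 kb (5 libraries) 29.8 against 2.17, and FLT1 intron 10 at +83.0 kb (5 libraries) 16.2 against 1.61. The TEK promoter had 6.32 against 1.13 CPM. These were picked after their values were seen, and a library without a called peak adds 0 to both classes, so they are descriptions.

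The class calls depended on the cells used. The test gave 16 higher and 10 lower with DESeq2 (background 4.29% and 14.9%), and 24 higher and 9 lower with a cut at 3 Poisson SD (background 9.78% and 12%). In either direction, 19.2% of all regions were called with DESeq2 and 21.7% with that cut. Among barcodes of 5000 to 15000 counts, which left 5 to 18 marker-high cells a library, 5 were higher and 9 lower (background 0.736% and 22.1%, and 22.8% in either direction), and the FLT1 and CDH5 promoters, KDR +37.4 kb, TIE1 +8.4 kb, SOX17, CDH5 +6.0 kb, FLI1 +48.2 kb, FLT1 +149.3 kb and the ETV2 exon region no longer passed, while FLI1 +27.1 kb, ERG +195.6 kb, CDH5 +9.4 and +1.8 kb and SOX18 did. FLI1 +48.2 kb also missed the threshold when any single library was left out (adjusted p = 0.050 to 0.12, edgeR), SOX17 when any but E18 ZZ was (0.053 to 0.22) and the ETV2 exon region when any but E21 ZZ was (0.061 to 0.20). FLT1 +149.3 kb missed it without E21 DZ or E28 DZ (0.055 and 0.14). There were 16 calls without E28 DZ and 18 without E28 ZZ.

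Across stages, 4 of the 5 receptor and junction genes fell in counts from E18 to E28, where 22.5% of all windows did. Per covered base, where the median of all windows was shifted to 0.55, none of the 4 passed as lower and all lay below that shift (0.44 for FLT1, 0.19 for TEK, 0.34 for TIE1 and -0.04 for CDH5). FLT1 passed as higher on that scale (adjusted p = 0.0025, edgeR). The CDH5 window had 25.9, 24.7, 13.8, 11.2, 5.81 and 7.19 CPM, with each stage below the one before it and no overlap (E28 against E18, log2 fold change -1.99 ± 0.20 SE, adjusted p = 0.0043, edgeR). TEK had 16.1, 17.7, 3.73, 2.72, 3.45 and 5.21 CPM, and the E21 libraries were already as low as those of E28 (-2.00 ± 0.35, adjusted p = 0.011, edgeR). FLT1 had 193, 190, 124, 122, 86.7 and 104 CPM (-1.04 ± 0.11, adjusted p = 0.0051, edgeR). In TIE1, the DZ library of E21 was already low, with 50.5, 48.8, 49.7, 28.8, 22.6 and 16.6 CPM (-1.40 ± 0.19, adjusted p = 0.0067, edgeR). KDR was the exception among the receptors, with 45.7, 53.7, 35.8, 34.3, 48.1 and 40.2 CPM, and E28 overlapped E18 (-0.21, adjusted p = 0.24, edgeR).

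The transcription factor genes went different ways. ERG had 134.3, 142.9, 166, 198, 209 and 196 CPM and was the only member window that was higher in counts (0.51 ± 0.10, adjusted p = 0.014, edgeR). FLI1 had 163, 151.4, 210, 247, 229 and 166 CPM, highest at E28 in ZZ and at E21 in DZ, and ETV2 had 56.0, 51.1, 57.9, 46.6, 55.6 and 55.9. Neither passed the test (adjusted p = 0.19 and 0.85, edgeR). SOX18 had 45.3, 37.9, 27.6, 30.0, 15.1 and 13.9 CPM (-1.56 ± 0.13, adjusted p = 0.0035, edgeR), while the region around it, which also holds peaks outside the window, had 78.7, 74.8, 87.5, 74.8, 79.2 and 68.6 (-0.10, adjusted p = 0.32, edgeR). That region was called as 2, 3, 4, 4, 7 and 7 peaks, and those that touched the SOX18 window covered 14652, 11195, 6067, 9009, 2254 and 2264 bases. The fall in the window thus went with shorter called peaks there, and per covered base the window was at 0.93. SOX17 had 16.2, 17.6, 13.5, 11.06, 12.5 and 15.2 (-0.32, adjusted p = 0.21, edgeR). Without 1 library, ERG missed the threshold when E18 ZZ, E18 DZ or E28 ZZ was left out (adjusted p = 0.055 to 0.10, edgeR), and TEK when E18 ZZ or E18 DZ was (0.068 and 0.11).

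**Figure D2:**
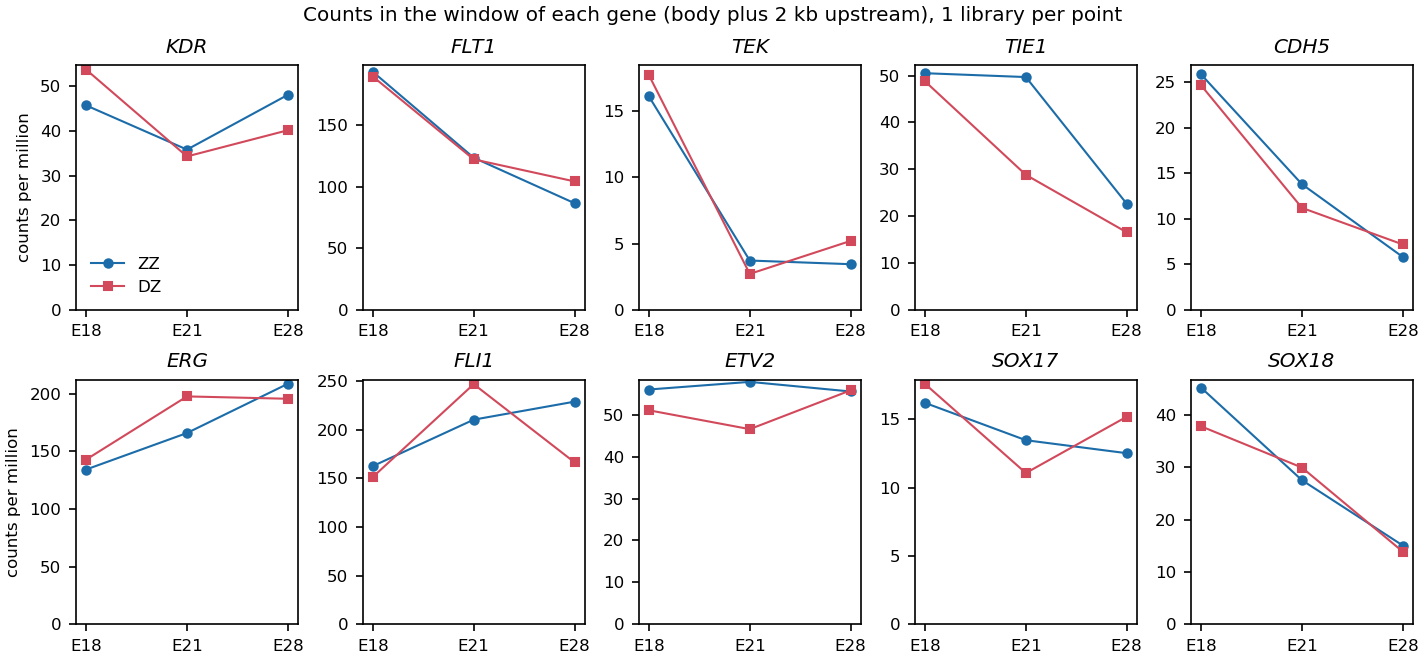
CPM in the window of each member gene (vertical axis, from 0) at E18, E21 and E28 (horizontal axis), with 1 point per library and a line for each breed. CDH5 falls from 25.9 and 24.7 to 5.81 and 7.19 while ERG is higher at E28, and the E18 and E28 points overlap for KDR and ETV2. These are sums over called peaks, and per covered base FLT1, TEK, TIE1 and CDH5 (0.44, 0.19, 0.34 and -0.04) lay below the shift of all windows (0.55) and SOX18 (0.93) above it.

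In all, 1 member window was higher and 5 were lower at E28, with 43.6% of all windows called (21.2% higher and 22.5% lower). Per covered base no member window was lower and 6 of 10 were higher (KDR, FLT1, ERG, FLI1, ETV2 and SOX18). Of the 20150 windows tested on that scale 2.1% were lower and 66.9% higher, and their median was shifted to 0.55 (log2). On that scale FLT1 was at 0.44, TEK at 0.19, TIE1 at 0.34 and CDH5 at -0.04, all below that shift, and ERG was at 0.71 and SOX18 at 0.93. Of the members, only ERG, FLI1 (0.83), ETV2 (0.59) and SOX18 lay above the shift of all windows. The covered length of CDH5 was 9610, 7478, 4585, 5034, 1866 and 2449 bases and that of TEK 5766, 5581, 1180, 1076, 889 and 1622. Depth also fell with stage, with median counts per kept cell of 10913 and 11452 at E18 and 8084.5 and 8781.5 at E28. Its part in the called length was not tested. Fewer endothelial cells, less open chromatin per cell, lower depth and fewer called peaks cannot be told apart in these sums.

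At single regions, 31 of 69 members changed in counts between E28 and E18 (background 37.1%), 17 higher (24.6%, background 19%) and 14 lower (20.3%, background 18.1%). The median log2 fold change was -0.01 over the members and -0.02 over all regions. Per covered base 32 were higher and 5 lower (background 45.8% and 6.39%), with a median of 0.46. Called the same way in both fits were 15 higher (21.7%, background 18.4%) and 4 lower (5.80%, background 5.8%), shares near those of all regions. Of the 15, 9 lay in ERG, 3 in FLI1, 2 in KDR and 1 in FLT1, from 24, 14, 3 and 14 tested. Of the 4, 2 lay in ERG and 1 each in FLT1 and TIE1. By position, 12 introns, 2 exons and 1 promoter were higher and 3 introns and 1 exon lower. Without the E18 DZ library 12 members passed in counts instead of 31.

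**Figure D3:**
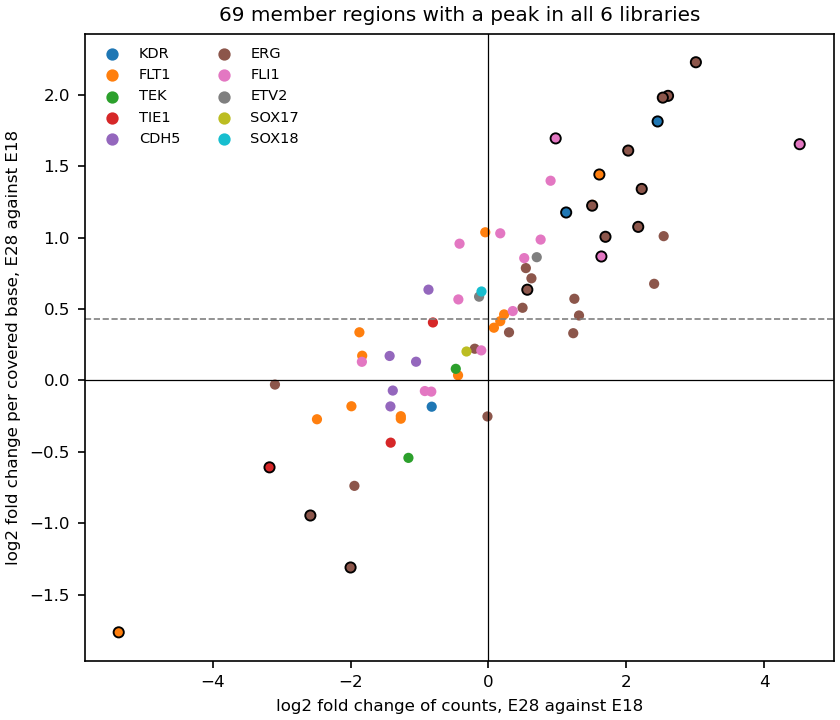
Log2 fold change of each of the 69 member regions between E28 and E18, in counts (horizontal axis) and per covered base (vertical axis), coloured by gene. Outlined points passed the test in the same direction in both, 15 higher and 4 lower, and the dashed line marks the median of all regions per covered base, 0.43.

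Of the 8 promoters tested, 1 was higher and 2 were lower at E28 in counts, and of the 51 introns 14 and 8. Of all regions 19% were higher and 18.1% lower, and shares for all promoters or all introns were not counted. ERG had the only promoter higher in both fits, with 18.9, 18.8, 26.4, 26.5, 33.3 and 24.6 CPM (0.56 ± 0.15 SE, adjusted p = 0.029, edgeR, and 0.64 per covered base). The KDR promoter had 26.5, 30.8, 23.9, 20.4, 21.0 and 13.1 CPM and was lower in counts (-0.82 ± 0.20, adjusted p = 0.025, edgeR), but not per covered base (-0.18). The CDH5 promoter had 11.4, 10.5, 7.09, 4.67, 5.66 and 3.28 CPM (-1.39 ± 0.25, adjusted p = 0.010, edgeR, and -0.07 per covered base). The FLT1 promoter had 28.8, 28.8, 21.0, 18.2, 17.7 and 26.4 CPM, and the E28 libraries lay on either side of the E21 libraries (-0.44, adjusted p = 0.15, edgeR). The FLI1 promoter had 67.4, 65.0, 88.9, 101, 100.3 and 75.1 CPM (0.35, adjusted p = 0.098, edgeR) and the ETV2 promoter 7.71, 6.55, 5.86, 7.35, 10.3 and 14.1 (0.70, adjusted p = 0.090, edgeR), and neither passed in counts. Per covered base both were higher (0.49 and 0.86, adjusted p = 0.0010 and 0.0020, edgeR), and 4 of the 8 promoters were higher and 0 lower, where the median of all regions was at 0.43. With only peaks that touch the 2 kb before the start, FLI1 was lower (-2.80, adjusted p = 0.018, edgeR). There a single peak spanned 12276, 11990, 12246 and 12290 bases at E18 and E21, while at E28 it was called in pieces and those that touched the 2 kb covered 2575 and 1887 bases. The ERG promoter kept its call only without E28 DZ (adjusted p otherwise 0.058 to 0.15, edgeR), the KDR promoter only without E18 ZZ or E28 ZZ (otherwise 0.051 to 0.19), and the CDH5 promoter missed the threshold without E18 DZ (0.11).

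Of the gains called in both fits, the largest in counts lay in an intron of FLI1, followed by one of ERG. ERG intron 4 at +240.5 kb had 2.98, 2.37, 9.74, 17.0, 21.3 and 24.2 CPM, with no overlap between stages (E28 against E18, 3.01 ± 0.33, adjusted p = 0.0033, edgeR, and 2.23 per covered base). FLI1 intron 4 at +89.9 kb had 0.17, 0.71, 3.53, 6.06, 11.4 and 6.00 CPM (4.52 ± 0.74, adjusted p = 0.0080, edgeR, and 1.65 per covered base). FLI1 intron 3 at +83.9 kb had 3.42, 2.89, 3.31, 4.23, 12.3 and 8.17 CPM, with both E28 libraries above the other 4 (1.64 ± 0.31, adjusted p = 0.012, edgeR). In KDR, the exon region at +34.4 kb had 1.62, 1.26, 2.21, 2.83, 8.48 and 7.89 CPM (2.46 ± 0.33, adjusted p = 0.0050, edgeR) and that at +37.4 kb had 6.76, 6.78, 8.10, 8.64, 16.9 and 13.8 (1.13 ± 0.21, adjusted p = 0.011, edgeR). Both were higher per covered base as well (1.81 and 1.18). Without E18 ZZ or E18 DZ, KDR +37.4 kb (adjusted p = 0.067 and 0.089, edgeR) and FLI1 +83.9 kb (0.051 and 0.091) missed the threshold.

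The steepest loss in both fits was in FLT1. Intron 10 at +77.3 kb had 10.7, 10.5, 2.26, 2.68, 0.36 and 0.18 CPM, a step down in counts at each stage (-5.37 ± 0.42, adjusted p = 0.0025, edgeR, and -1.76 per covered base). Its called length was 1598, 1517, 894, 960, 145 and 110 bases. Per covered base the step from E18 to E21 passed (-1.42, adjusted p = 0.00036, edgeR). The step from E21 to E28 did not (-0.34, adjusted p = 0.38, edgeR). FLT1 intron 14 at +115.4 kb had 8.40, 9.86, 5.67, 5.07, 1.73 and 1.62 CPM (-2.49 ± 0.26), but -0.27 per covered base. ERG intron 3 at +177.0 kb was similar, with 6.55, 6.81, 3.10, 3.16, 1.10 and 0.56 CPM (-3.10 ± 0.38) and -0.03 per covered base. The CDH5 intron at +9.4 kb, the strongest of that gene in marker-high cells, had 2.48, 2.52, 1.13, 1.73, 0.84 and 1.10 CPM (-1.44 ± 0.41, adjusted p = 0.039, edgeR), missed the threshold whenever any library was left out (0.067 to 0.30) and was at 0.17 per covered base. TIE1 +8.4 kb was lower in counts (-0.81 ± 0.14), but missed the threshold without E18 DZ, at -0.65. Per covered base it was at 0.41, near the shift of all regions (0.43), and passed as higher (adjusted p = 0.046, edgeR). TEK intron 3 at +51.0 kb, with 2.29, 2.85, 1.61, 1.03, 1.21 and 1.16 CPM, did not pass (-1.16 ± 0.42, adjusted p = 0.074, edgeR). The TIE1 exon region at +21.0 kb had 9.52, 11.8, 11.07, 4.90, 1.57 and 0.98 CPM (-3.18 ± 0.40, adjusted p = 0.0044, edgeR, and -0.61 per covered base). The ERG intron that marked endothelial-marker-high cells, at +195.6 kb, had 6.57, 7.01, 5.83, 4.28, 2.09 and 0.59 CPM. It also fell in both fits (-2.59 ± 0.49, adjusted p = 0.012, edgeR, and -0.95 per covered base). Without E18 DZ it still fell in counts (-2.06) but missed the threshold. A peak was still called there in both E28 libraries. By class, its CPM in the other cells were 6.54 and 6.89 at E18 and 1.86 and 0.48 at E28, while marker-high cells had 16.4 and 44.8 at E18 and 60.2 and 24.6 at E28, which overlap (0.07, adjusted p = 0.99, edgeR).

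**Figure D4:**
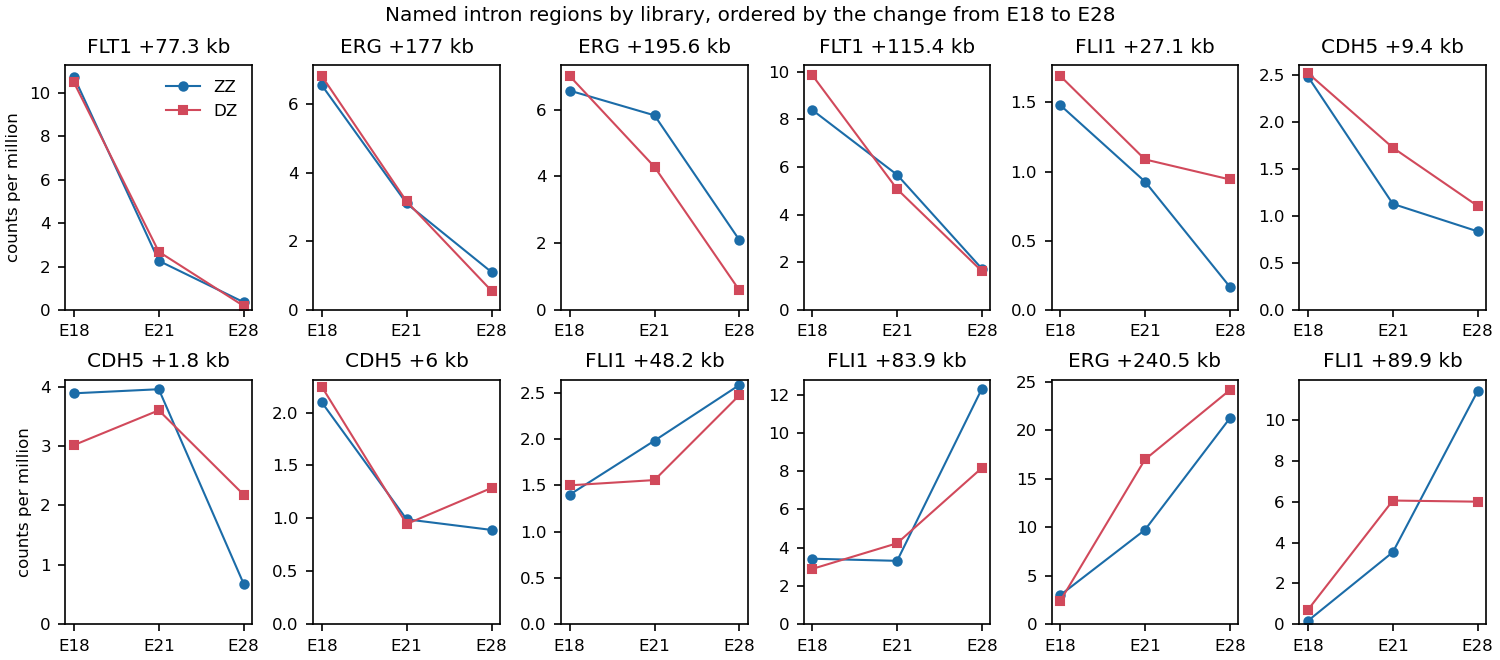
CPM (vertical axis, from 0) of the named intron regions at E18, E21 and E28 (horizontal axis), 1 point per library and a line per breed, ordered by the change from E18 to E28. FLT1 +77.3 kb falls from 10.7 and 10.5 to 0.36 and 0.18, and ERG +240.5 kb and FLI1 +89.9 kb rise.

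Between E21 and E18, 9 of 69 members changed (13.0%, background 6.59%), and all 9 were introns, which made up 51 of the 69. Higher were 7 (10.1%, background 4.8%), of which 4 lay in ERG, 2 in FLI1 and 1 in FLT1, and 2 FLT1 introns were lower (2.90%, background 1.78%). ERG intron regions at +217.1 kb (2.52, 3.41, 11.7, 13.7, 13.9 and 14.4 CPM, 2.04 ± 0.21) and +240.5 kb (2.20 ± 0.32) were thus already raised at E21. FLI1 at +109.1 kb had 20.6, 17.4, 37.8, 45.8, 43.0 and 34.3 CPM (1.08 ± 0.17, adjusted p = 0.031, edgeR). Of the windows, TEK alone passed (lower, -2.39 ± 0.35, adjusted p = 0.046, edgeR), where 2.42% of all windows were called and 1.45% were lower. Per covered base the TEK window was at -0.10 (adjusted p = 0.81, edgeR). Of the regions, 11 were higher and 5 lower on that scale (15.9% and 7.25%, background 13% and 4.69%). The 7 introns higher in counts were higher there too, and of the 2 lower only FLT1 +77.3 kb was. Leaving out E18 DZ, E21 ZZ or E21 DZ left 0 region calls, leaving out E18 ZZ left 4, and leaving out E28 ZZ or E28 DZ gave 21 and 22, with 2 residual degrees of freedom in the full fit. TEK passed in no fit that left out a library of E18 or E21 (adjusted p = 0.14 to 0.31, edgeR).

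Between E28 and E21, 7 of 69 members changed (10.1%, background 7.13%). KDR +34.4 kb was higher (background 2.53%) and 6 were lower (8.70%, background 4.61%), which were FLT1 +77.3 and +115.4 kb, TIE1 +21.0 and +8.4 kb, and ERG +177.0 and +161.9 kb. Per covered base 20 were higher and 1 lower (background 30.2% and 2.26%), with FLT1 +115.4 kb at 0.47 and TIE1 +8.4 kb at 0.28 where the median of all regions was at 0.33. The windows of TIE1 (-1.01, adjusted p = 0.046, edgeR) and SOX18 (-1.03, adjusted p = 0.026, edgeR) were lower (background 6.42%, and 5.34% for lower), and were at 0.18 and 0.68 per covered base, where the median of all windows was at 0.34. The TIE1 window missed the threshold when any library but E18 ZZ was left out (adjusted p = 0.051 to 0.21, edgeR), and SOX18 without E21 ZZ or E21 DZ (0.12 and 0.098). Without E21 ZZ or E21 DZ no region and no window passed. The region count was 4 without E18 DZ, 17 without E28 ZZ and 13 without E28 DZ, and 1 window passed without E18 DZ or without E28 ZZ.

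No member differed between the breeds in the edgeR test, 0 of 69 regions and 0 of 10 windows, with 0% of all regions and 0.00448% of all windows called. At an unadjusted p under 0.05 there were 2 of 69 (2.90%), against 4.94% of all regions, and DESeq2 gave 0. These were TIE1 +8.4 kb, with 28.5, 32.2 and 19.8 CPM in ZZ and 23.8, 21.0 and 11.9 in DZ at the same stages (DZ against ZZ, -0.48 ± 0.11, adjusted p = 0.85, edgeR), and ERG +153.2 kb, with 0.81, 2.93 and 4.93 in ZZ and 1.62, 3.33 and 10.4 in DZ (0.81 ± 0.27, adjusted p = 0.85, edgeR). Peaks in every ZZ library and no DZ library, or the reverse, occurred at 0 of the 204 member regions. That pattern was not counted over all regions, so the 0 describes these regions only. Member windows differed between breeds by -0.40 (TIE1, ± 0.15) to 0.12 (TEK, ± 0.27), and with 3 libraries a breed none of these passed. A breed difference limited to 1 stage could not be tested.

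The class and stage calls were then set side by side. Of the 14 higher in marker-high cells, 1 was higher and 5 were lower at E28 than at E18, with a median log2 fold change of -0.93 (per covered base 5 higher, 1 lower, median 0.15). Of all 2073 regions higher in that class, 10.2% were higher and 29.2% lower at E28, with a median of -0.43 (per covered base 31.1%, 10.5% and 0.25). Of the 14 lower in marker-high cells, 7 were higher and 2 lower, with a median of 1.34 (per covered base 9 and 2, 1.04), and of all 21850 regions lower in the class, 30.5% were higher and 15.6% lower, with a median of 0.27 (per covered base 56.0%, 6.39% and 0.59). Across the 69 regions the fold changes of class and stage had r = -0.39 and rho = -0.41, and across all 78506 regions -0.19 and -0.18, a description over regions of the same libraries. In counts, the medians of both class calls thus had the same signs over all regions as over the members. The ERG intron at +240.5 kb and the FLI1 intron at +109.1 kb were among the 7 members lower in the class and higher at E28. The KDR exon region at +37.4 kb was the only one higher on both counts.

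**Figure D5:**
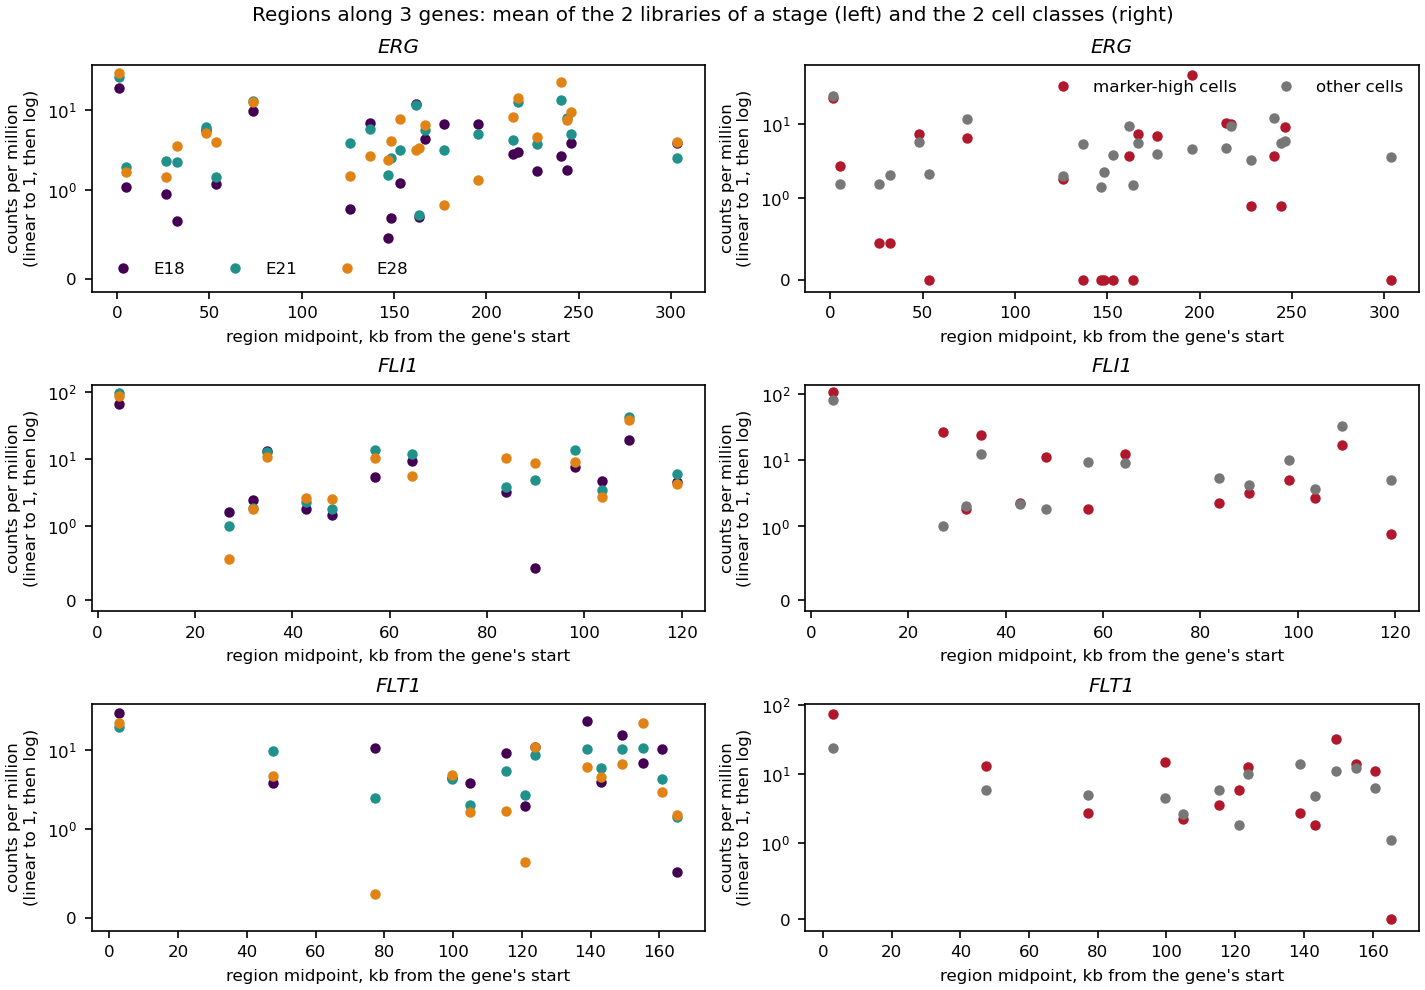
Levels in CPM (vertical axes, linear to 1 and logarithmic above) of the regions with a peak in every library along ERG, FLI1 and FLT1, by the distance of a region's midpoint from the gene's start in kb (horizontal axes). Left panels give the mean of both libraries of a stage and right panels the marker-high and other cells, and ERG shows a single site far above the other cells, at +195.6 kb.

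Within marker-high cells alone, 17 members had enough counts to be tested between E28 and E18, and none passed in edgeR (background 0.0335%), 3 had an unadjusted p under 0.05, and DESeq2 gave 0. With the cut at 3 Poisson SD, 6 of 46 passed (13.0%, background 9.1%), 1 higher and 5 lower (background 4.68% and 4.42%). The class held 12 to 30 cells a library.

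Of the wider pathway, 53 of 55 listed genes were in the annotation. Between E18 and E28, 8 of their windows were higher and 21 lower in counts (15.1% and 39.6%, background 21.2% and 22.5%), with a median of -0.32 against -0.04 over all windows. Per covered base 33 were higher and 0 lower (62.3% and 0%, background 66.9% and 2.1%), with a median of 0.42 against 0.55. In counts, among 9 listed ligands, which include APLN and VEGFD and are not all ligands of the members, 1 was higher and 4 lower. Among 7 other receptors and co-receptors none was higher and 5 were lower, among 14 other endothelial regulators 1 and 7, and among 5 Notch and ephrin genes 1 and 2. Other ETS factors were the only one of these groups with more rises than falls in counts, 5 and 3 of 18. Per covered base every group had 4 or more rises (4, 4, 6, 5 and 14 in the same order) and 0 falls. ETV4, a target of FGF signalling, had 70.1, 65.6, 97.1, 116, 118 and 122 CPM (0.79 ± 0.11). The ETS factor ELK4 (0.75 ± 0.10) and ANGPT2 (0.72 ± 0.14), the ligand that antagonises TEK signalling, were also higher. SPDEF, an epithelial ETS factor, had 12.1, 12.1, 7.79, 6.04, 3.24 and 2.68 CPM (-2.07 ± 0.28). ELF4 (-1.15 ± 0.15) and the lymphatic receptor FLT4 (-1.11 ± 0.18) were lower. Per covered base ETV4 (0.66) and ANGPT2 (1.49) lay above the shift of all windows (0.55), and ELK4 (0.27), SPDEF (0.14), FLT4 (0.05) and ELF4 (-0.07) below it.

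Other cell types moved over the same stages. The 13 endothelial markers used to choose cells summed to 361, 361, 274, 268, 256 and 259 CPM, with 2 windows higher and 7 lower at E28 in counts (background 21.2% and 22.5%). All 4 later libraries were below both E18 libraries. Heart markers summed to 206 to 443 CPM and had 0 windows higher and 6 lower of 7, neural markers 169 to 399 CPM and 0 and 7 of 7, mural markers 272 to 400 CPM and 0 and 5 of 6, and blood markers 290 to 345 CPM and 1 and 4 of 9. Mesenchymal markers, at 376 to 515 CPM, had 5 higher and 1 lower of 8, and myogenic markers, at 318 to 423 CPM, 1 and 1 of 8. Per covered base (background 66.9% higher and 2.1% lower), 4 endothelial windows were higher and 0 lower, and the counts were 1 and 1 for heart, 1 and 4 for neural, 2 and 1 for mural, 5 and 1 for blood, 7 and 1 for mesenchymal and 6 and 0 for myogenic markers. The blood genes GATA1, ALAS2 and TYROBP were listed at 0 in all 6 libraries, and no window of another list was. In marker-high cells the summed endothelial markers were at 4.91 times the other cells, which follows from choosing the cells by these markers. Of the 13, 12 were higher in that class and EMCN was lower (6.77 against 8.31 CPM). The lists not used in the choice were at 1.09 for blood, 1.08 for heart, 0.82 for neural, 0.71 for mural, 0.60 for mesenchyme and 0.48 for myogenic markers. Between any pair of libraries, 113 to 157 barcodes were shared. The part of these shifts in the stage changes of the members was not tested.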

How the data were processed

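Single-cell ATAC-seq was deposited as 6 libraries, 1 per stage and breed. The authors aligned reads to Sscrofa11.1 with Cell Ranger ATAC 1.2.0 and called peaks and cells in each library separately. The deposited values are raw counts of Tn5 cut sites per peak and barcode, with no normalization, so most fragments add 2 counts, and peak lists give positions with no score. A region with no called peak is listed at 0, and sums move with the length called.

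Barcodes with 2000 to 30000 counts were kept, 9286 to 11243 per library with 89816504 to 133037579 counts. Regions joined peaks with an overlap of 1 bp or more and were named exon, promoter or intron by the RefSeq annotation, and CPM were taken over the kept counts. Stages and breeds were compared over all regions with a peak in every library (78533), and over all windows (22320), with the edgeR quasi-likelihood test (edgeR 4.0.16, R 4.3.3), TMM, filterByExpr, terms for stage and breed, and Benjamini-Hochberg adjusted p under 0.05. Per covered base, all windows means the 20150 that were tested with called sequence in every library. Cell classes were compared on sums per library and class with the library as a block (5 residual degrees of freedom), leaving out regions of the endothelial markers. In that fit the p-values of named regions equal those of a normal distribution. They therefore rest on a spread pooled over regions and not on that of a single region between the pools. The stage and breed fits also share the spread over regions or windows, and for windows more so per covered base. The KDR window per covered base (E28 against E18, 0.54 ± 0.16) had an unadjusted p of 0.0010 (edgeR). In counts (E21 against E18, -0.51 ± 0.13) it had 0.011 (edgeR). In the edgeR fits the SE is the absolute log2 fold change divided by the square root of the F statistic. The marker lists were endothelial (13 of 14 genes annotated), blood, heart, mural, myogenic, mesenchymal and neural. Alternatives were DESeq2 1.42.0, no filter, 4000 to 60000 counts, no breed term, covered length as an offset or limited to a ratio of 1.5, promoters alone, other marker limits and depths, and each library left out. Sequences were read with pysam 0.24.0. The code was tested on simulated data.

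The members and gene lists were chosen with earlier results of these data known. All 10 members were named, each with its promoter region and at most 2 further regions that changed most between E28 and E18, or the 1 with most counts where none passed. In the class comparison the 10 with the largest fold were named, and of the pathway list 3 that rose and 3 that fell. Regions called the same way in counts and per covered base were a summary chosen after seeing the data.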

Additional observations from a re-analysis of the deposited data

Results flagged for a closer look

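Member windows were checked for stage changes that ran in opposite directions in the 2 breeds. With 1 library per stage and breed, none of these differences was tested, and they are given as the log2 ratio of CPM in ZZ, then in DZ, then the difference, DZ minus ZZ. Between E28 and E18 the KDR window had 0.07, -0.42 and -0.49, and ETV2 had -0.01, 0.13 and 0.14. Between E21 and E18 ETV2 had 0.05, -0.13 and -0.18. Between E28 and E21 TEK had -0.11, 0.94 and 1.05, ERG 0.33, -0.02 and -0.35, FLI1 0.12, -0.57 and -0.69, ETV2 -0.06, 0.26 and 0.32, and SOX17 -0.11, 0.46 and 0.56. The TEK ratio rests on 3.73 (ZZ) and 2.72 CPM (DZ) at E21 and on 3.45 and 5.21 at E28, and the covered length there was 1180, 1076, 889 and 1622 bases. No group had the 4 samples that a check for outlying libraries needs.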

How the results depend on the processing

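Covered length as an offset brought the median of all windows to 0.55 between E28 and E18, to 0.34 between E28 and E21 and to 0.19 between E21 and E18. A change of sign under it therefore need not be one relative to other genes. Among windows called in at least 1 of both fits, those that changed sign came to 0.54 for KDR, 0.44 for FLT1, 0.19 for TEK, 0.34 for TIE1 and 0.93 for SOX18 between E28 and E18, to 0.59 for FLT1, 0.18 for TIE1, 0.36 for FLI1 and 0.68 for SOX18 between E28 and E21, and to 0.39 for ETV2 between E21 and E18. Of these, SOX18 in both contrasts, FLT1 and FLI1 between E28 and E21, and ETV2 lay above the shift. The median of all regions came to 0.43, 0.33 and 0.08 in the same order. The named regions that were called in at least 1 fit and changed sign were TIE1 +8.4 kb (0.41), CDH5 +9.4 kb (0.17), ETV2 +2.2 kb (0.59) and SOX18 (0.63) between E28 and E18, FLT1 +115.4 kb (0.47), TIE1 +8.4 kb (0.28) and SOX18 (0.53) between E28 and E21, and ETV2 +2.2 kb (0.41) between E21 and E18. With promoters alone FLI1 was at -2.80 between E28 and E18, where the peak was called in pieces at E28, and with a cut at 3 Poisson SD the FLI1 promoter was at 0.30 between cell classes. Apart from the offset and the promoter peaks, the cause of these moves was not tested.

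Counts of member regions called moved as follows. The share of all regions or windows called is not given for every setting. It is missing for a library left out, within 1.5 times, no breed term, promoters alone and DESeq2 between stages. Moves of the member counts under these settings, here and above, need not be particular to the members. Between E28 and E18 the main count of 31 was 3 where covered length was within 1.5 times (fewer regions were tested) and 12 to 36 with a library left out. Between E21 and E18 the 9 became 16 with the offset, 1 within 1.5 times, 20 with DESeq2 and 0 to 22 with a library left out. Between E28 and E21 the 7 became 21, 2 and 23 under the same 3 settings and 0 to 17 with a library left out. Windows between E21 and E18 went from 1 to 2 with the offset, 0 with promoters alone, 8 with DESeq2 and 0 to 5 with a library left out, and between E28 and E21 from 2 to 5, to 4 with DESeq2 and to 0 to 3 with a library left out. The 28 class calls were 14 among barcodes of 5000 to 15000 counts and 16 to 25 with a library left out, and within marker-high cells 0 became 6 at 3 Poisson SD. Breed calls were 0 under every alternative run. A cut at 8 Poisson SD was not fitted, since E18 ZZ and E28 DZ held no such cell. The breed term pairs the stages within a breed, and without it the stage counts were 33 (E28 against E18), 10 (E21 against E18) and 10 (E28 against E21).

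Among named values, 378 window values, 1048 region values and 238 class values kept direction and side of the threshold, and 21, 65 and 28 lost the call. In the same order, 26, 60 and 3 gained a call, and 11, 8 and 1 changed sign. Pools of 1 sow, 2 residual degrees of freedom, separate peak calling and 12 to 30 marker-high cells per library set the precision. Depth limits introns with few CPM in that class.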
